A study of Drosophila melanogaster with 3 samples.

Results

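Transcripts of 4 families of DNA-binding transcription factors were examined in OSS cells, a stable somatic line from the Drosophila melanogaster ovary: the nuclear receptors, the Sox factors, the forkhead factors and the GATA factors. Genes were chosen by symbol in the array's annotation, and each had to have a probe set assigned to it alone. Family members under symbols that the chosen patterns do not name were not covered. This gave 48 genes, among them 20 nuclear receptor, 7 Sox, 16 forkhead and 5 GATA genes, out of 11982 genes measured. They were covered by 64 probe sets. The listed genes Eip75B and slp1 lacked a probe set of their own in this annotation and were not analysed here.

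Total RNA of near-confluent OSS cells was measured on 3 Affymetrix arrays, which form the only group. The cells grew in medium with serum, insulin, glutathione and fly extract and received no treatment. The labels describe the line as follicular stem cells, which makes it 1 line of 1 cell type. They do not say whether the samples were separate cultures, so SDs measure how far these samples varied and nothing more. That variation may be technical. The limma p-values concern these samples only, draw also on the variance of other genes, and take the background level as fixed. Of 13 follicle cell markers measured, 7 (53.8%) were above background, where 45.7% of all genes were. Among these 7 were tj at 6.83 ± 0.69 and the eggshell gene dec at 6.90 ± 0.28 (SD, n = 3). The markers cas, peb, slbo and upd1 lay at the lowest deposited value. Of 12 germline markers 2 (16.7%) were above background, grk and ovo, while vas, nanos, bam, orb, AGO3 and zpg lay at the lowest value.

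Nuclear receptors are transcription factors that many small lipophilic ligands control; in flies the steroid hormone 20-hydroxyecdysone acts through the heterodimer of EcR and usp and starts a cascade in which further nuclear receptors are themselves targets. Sox factors bind DNA through an HMG box, forkhead factors through a winged helix, and GATA factors through zinc fingers that read the sequence they are named after. In the ovary, ecdysone signalling is known to act in germline and follicle cells during egg chamber development.

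No other condition was labelled, so the reference for each gene was a background level, set at 2.49 on the deposited log2 scale. It was the 95th percentile of the means of 112 chemosensory genes, the odorant and gustatory receptors, which were assumed to be silent in an ovarian line. A gene was called above background where its 3 values exceeded that level at an adjusted p under 0.05 (limma, one-sided, Benjamini-Hochberg adjustment over all 11982 genes). Because affinity differs between probe sets, a higher value of one gene than of another does not mean more transcript. Each gene was set against the same background level, which came from the probe sets of the chemosensory genes. This does not remove the differences in affinity, so distances over background do not rank genes by amount of transcript either. A low value in bulk RNA does not tell apart fewer cells that use a gene and less RNA per cell. Of the 112 background receptors themselves, 4 were called, with Gr39a the highest at 2.79. Because the level is a percentile of these same genes, some lie over it by construction, and their count does not check the error rate.

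Of the 48 factor genes, 17 (35.4%) were called above background, where 45.7% of all genes were called. A stricter level, 1 log2 unit over background, was passed by 8 of them (16.7%), where 25.2% of all genes passed. These 8 were usp, Hr78 and Hr39 of the nuclear receptors, Sox102F and Sox14, and the forkhead genes bin, croc and FoxK. Of the 17 called genes, 6 (35.3%) lay less than 0.5 log2 units over background, against 21.6% of all called genes. Another 16 genes (33.3%) lay at the lowest deposited value, 2.39, on every array, as did 28.4% of all genes. The median of the 48 gene means was 2.40 and that of all gene means 2.47.

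**Figure D1:**
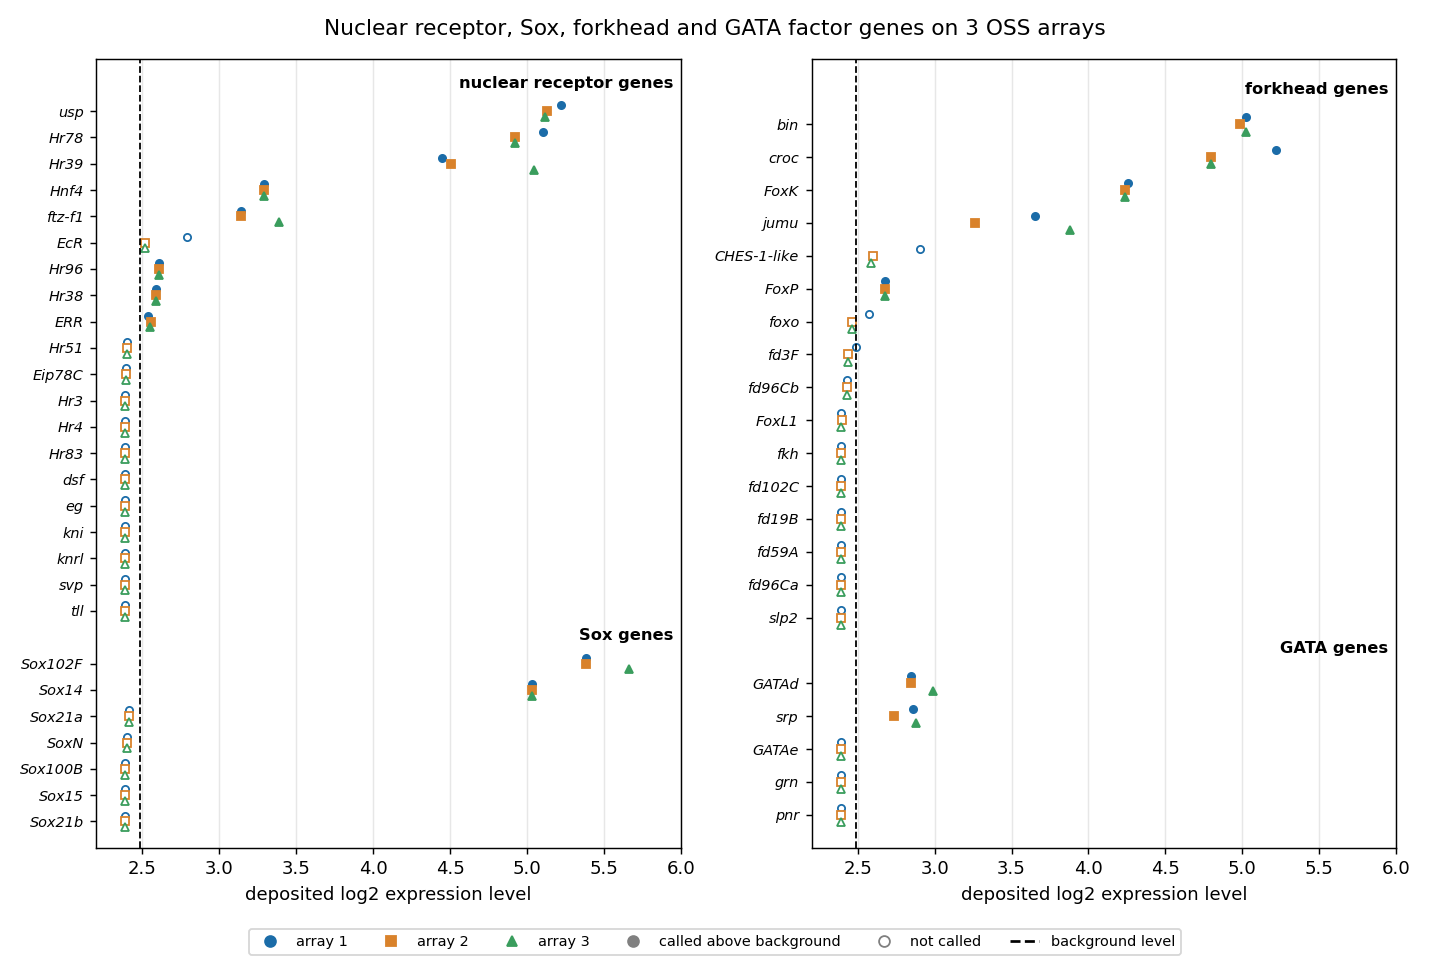
Deposited log2 expression level (horizontal axis) of each of the 48 factor genes on the 3 OSS arrays, grouped by family; filled marks are genes called above background, open marks genes that were not, and the dashed line is the background level of 2.49. Levels of usp, Hr78, Hr39, Sox102F, Sox14, bin, croc and FoxK lie between 4.24 and 5.66 on every array. At the lowest deposited value lie 16 genes, and some others also round to its 2.39.

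Among the nuclear receptors, 8 of 20 genes (40%) were called above background, where 45.7% of all genes were. The stricter level was passed by 3 (15%), against 25.2% of all genes. The family median was 2.40. The partner gene of the ecdysone receptor, usp, whose protein is the fly counterpart of the vertebrate retinoid X receptors, measured 5.22, 5.13 and 5.12 on arrays 1 to 3. All of its values stood clear of background, by 2.67 ± 0.057 log2 units (SD, n = 3; limma, adjusted p = 5.6e-05). EcR itself measured 2.79, 2.51 and 2.51. Its mean of 2.61 lay 0.12 log2 units over background and was not called (adjusted p = 0.26), with 1 array high and the others near the level. The EcR value came from 1 probe set, whose name marks sequence shared between transcripts or genes. The same holds for Hr78, Sox14, Hnf4, ERR and srp, all called and without a second probe set.

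Receptors of the ecdysone cascade were divided. Hr78, an orphan receptor required for responses to ecdysone at the onset of metamorphosis, measured 5.10, 4.92 and 4.92, which was 2.50 ± 0.10 log2 units over background (SD, n = 3; limma, adjusted p = 0.00018). Hr39, which is needed for the glands of the female reproductive tract, measured 4.45, 4.51 and 5.04 with its highest probe set, or 2.18 ± 0.33 over background (adjusted p = 0.0025). Its relative ftz-f1, a competence factor for the prepupal response, measured 3.14, 3.14 and 3.39 (adjusted p = 0.0047). All arrays of these genes lay above the background level, and array 3 was the high one for Hr39 and ftz-f1. Hr38, the fly member of the vertebrate NR4A group, which can also pair with usp, measured 2.59 on every array (adjusted p = 0.0032). That is 0.10 log2 units over background, less than the distance between the level and the highest background gene. Eip78C measured 2.39, and the early-late genes Hr3 and Hr4 lay at the lowest value, Hr4 with all 3 of its probe sets.

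Of the receptors known for metabolism, Hnf4, which drives lipid oxidation in larvae, measured 3.29 on every array, 0.81 log2 units over background (limma, adjusted p = 5.1e-05). Hr96, a regulator of sterol and triacylglycerol balance, measured 2.60 on every array (adjusted p = 0.0022). ERR, known for switching on glycolytic genes in embryos, measured 2.53, 2.55 and 2.55 (adjusted p = 0.017). Both were called, yet they lay only 0.12 and 0.059 log2 units over the level. ERR lost the call whichever array was left out (limma, adjusted p = 0.15 to 0.19), and so did Hr38 (0.058 to 0.11). Hr96 was not called without replicate 1 (0.083) or replicate 2 (0.060).

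The receptors that act mainly in embryonic patterning and in the nervous system were not called. The gap gene kni, its neighbour knrl, svp (the fly COUP-TF), dsf and eg lay at the lowest value of 2.39 on every array, svp with all 3 of its probe sets. Hr83 lay there too. The terminal patterning gene tll measured 2.39 and Hr51, known for mushroom body neurons, 2.40. The highest value among these 8 genes was thus that of Hr51, under background on every array.

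The ecdysone pathway around these receptors was described with 2 lists, chosen with earlier results of these data known. For hormone synthesis, uptake and turnover, 4 of 11 measured genes (36.4%) were called, against 45.7% of all genes, with a list median of 2.39. Cyp18a1, the hydroxylase that inactivates 20-hydroxyecdysone, measured 7.83, 8.01 and 6.56 (limma, adjusted p = 0.0029). The importer gene Oatp74D measured 4.20, 4.60 and 3.96 (adjusted p = 0.0039). Both lay well above background on every array. Of the enzymes of synthesis, spo was called at 3.50 ± 0.042 (SD, n = 3; adjusted p = 0.00020). The last enzyme, shd, which makes the active hormone, measured 2.55 on every array, 0.068 log2 units over background (adjusted p = 0.0079). It lost the call whichever array was left out (limma, adjusted p = 0.11 to 0.18), so that 3 genes of the list were then called. With its lowest probe set shd was not called either (limma, adjusted p = 0.995), its mean minus the level being -0.058. Not called were nvd, spok and dib, at 2.44, 2.39 and 2.39, and sad, sro, Cyp6t3 and Eo, all at the lowest value.

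Of 12 measured ecdysone response genes outside the receptor family, 7 (58.3%) were called, against 45.7% of all genes, with a list median of 2.96. ImpL2, a secreted insulin-binding protein, measured 10.05, 7.60 and 8.24, the widest spread of the list (8.63 ± 1.27, SD, n = 3; limma, adjusted p = 0.0052). The kinase gene Eip63E measured 7.63, 7.85 and 7.07. The zinc finger gene br, an early ecdysone target that also patterns follicle cells, measured 4.03, 3.65 and 3.98 (limma, adjusted p = 0.0025), and was not called without replicate 1 (0.12). With its lowest probe set br was not called either (limma, adjusted p = 0.995), its mean minus the level being -0.058. ImpE2 and ImpE3 lay at the lowest value, as did Eip93F, and Blimp-1 measured 2.43.

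Cofactors of nuclear receptors had 12 of 13 measured genes called (92.3%, against 45.7% of all genes), with a median of 3.74. The stricter level was passed by 6 (46.2%, against 25.2% of all genes). The chromatin remodeller gene Mi-2 measured 6.96, 6.95 and 7.20, and mbf1, a bridging coactivator, measured 6.56, 6.55 and 6.49. The corepressor gene Smr measured 6.55, 6.04 and 5.64. At the low end, the coactivator gene tai, which works with EcR and usp, measured 2.76 on every array, 0.28 log2 units over background (limma, adjusted p = 0.00037). E(bx), a remodelling subunit, was not called at 2.41, 2.41 and 2.60.

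Genes of pathways that the metabolic receptors are known for were mostly called, where 45.7% of all genes were. All 9 measured glycolysis genes were above background, with a median of 6.72. The stricter level was passed by 8 (88.9%), against 25.2% of all genes. Gapdh1 measured 10.26, 9.52 and 9.64, and Eno 9.42, 8.73 and 8.90. Array 1 was the high one for both. Pfk measured 4.43, 3.86 and 4.33, and Hex-A only 2.62, 2.57 and 2.62 (limma, adjusted p = 0.0099). Without replicate 1 or replicate 3 Hex-A was not called (0.11 and 0.077). Of 10 fatty acid oxidation and lipolysis genes 9 (90%) were called and 5 (50%) passed the stricter level, with a median of 4.36. The dehydrogenase gene scu measured 7.33, 6.94 and 6.70 and the electron transfer flavoprotein gene wal 6.21, 6.06 and 6.06. Acsl, an acyl-CoA synthetase gene, measured 2.77 on every array, while the lipase gene Lip4 lay at the lowest value. Which factor controls these genes was not tested.

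**Figure D2:**
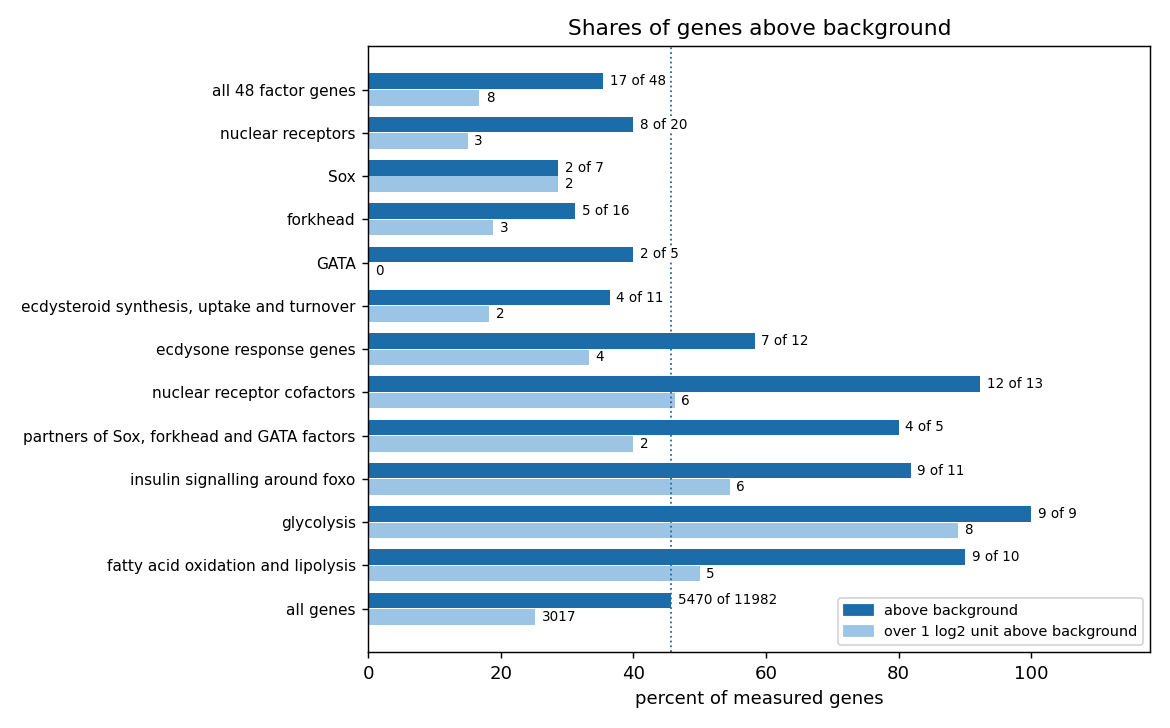
Percent of measured genes called above background (dark bars) and over 1 log2 unit above it (light bars) for the 48 factor genes, their 4 families, the 7 pathway lists and all 11982 genes; numbers give the genes called, and the dotted line is the 45.7% of all genes. The 4 families lie between 28.6% and 40%, and the cofactor, glycolysis and fatty acid lists at 90% or more.

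Of the Sox genes, 2 of 7 (28.6%) were called, against 45.7% of all genes. Both lay over the stricter level, which 25.2% of all genes passed. The family median was 2.40. Sox102F, the SoxD-type gene, measured 5.38, 5.38 and 5.66, which was 2.99 ± 0.16 log2 units over background (SD, n = 3; limma, adjusted p = 0.00030). Sox14, an ecdysone-induced gene required for metamorphosis and for pruning of neurites, measured 5.03 on every array, 2.55 over background (adjusted p = 1.4e-05). The other 5 genes lay between 2.39 and 2.41, under background on every array. Sox21a, known from intestinal stem cells, measured 2.41 and SoxN, a gene of the early neural plate, 2.40. Sox100B, a SoxE-type gene that acts in the developing testis, Sox15 and Sox21b lay at the lowest value, Sox15 with both of its probe sets. Of 12 neuronal and glial markers, 4 (33.3%) were called, with values from Appl at 2.39 to the glial receptor gene moody at 4.32 ± 0.59 (SD, n = 3). The neuronal markers elav, Syn and futsch measured 2.72, 2.75 and 2.72 and nSyb 2.39. The part of other cell types in the Sox levels was not tested.

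The forkhead family had 5 of 16 genes called (31.2%, against 45.7% of all genes), with a median of 2.44. The stricter level was passed by 3 (18.8%, against 25.2% of all genes). The gene bin, which specifies visceral mesoderm, measured 5.02, 4.99 and 5.02 with its highest probe set, 2.52 ± 0.020 log2 units over background (SD, n = 3; limma, adjusted p = 1.9e-05). The gene croc, a FoxC relative that acts in the head region of the embryo, measured 5.22, 4.80 and 4.80 (2.45 ± 0.24; adjusted p = 0.00099). FoxK measured 4.26, 4.24 and 4.24 with its highest probe set (adjusted p = 1.9e-05). All 3 genes lay over the stricter level on every array. The gene jumu, a FoxN-type chromatin factor also called Domina, measured 3.66, 3.26 and 3.88. Its SD of 0.31 was among the 3 largest of the 48 genes, with those of Hr39 and croc. It was called (adjusted p = 0.011), but not without replicate 1 (0.065).

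The muscle and heart list bears on bin, since bap, which acts upstream of bin in the visceral mesoderm of the embryo, is among its members. Of 6 measured genes of that list, 2 (33.3%) were called, against 45.7% of all genes. These 2 were bap at 3.55 on every array and Mlc2 at 3.31, 3.21 and 3.23. Hand and Act88F lay at the lowest value, and Prm, with array 3 far above the others at 2.72, 2.65 and 3.92, was not called. The part of such cells in the level of bin was not tested.

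Of the remaining forkhead genes, FoxP, known for motor and decision behaviour, was called at 2.68 on every array, 0.19 log2 units over background (limma, adjusted p = 0.00080). CHES-1-like measured 2.90, 2.60 and 2.59 and was not called (adjusted p = 0.12), although every array lay over the level. The insulin effector gene foxo measured 2.58, 2.46 and 2.46, on both sides of the level, and was not called (adjusted p = 0.71). The gene fd3F, which acts in mechanosensory neurons with cilia, measured 2.49, 2.44 and 2.44. The other 8 genes lay between 2.39 and 2.43. Of these, fd102C, fd19B, fd59A and the segmentation gene slp2 lay at the lowest value. The salivary gland and gut gene fkh, the paralogs fd96Ca and fd96Cb, and FoxL1 measured 2.39, 2.39, 2.43 and 2.39.

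Insulin signalling, which keeps the foxo protein out of the nucleus, had 9 of 11 measured genes called (81.8%, against 45.7% of all genes). The list median was 3.62. The stricter level was passed by 6 (54.5%, against 25.2% of all genes). Insulin was a component of the medium. The 14-3-3 protein gene 14-3-3epsilon measured 8.42, 8.05 and 7.96, and the kinase gene Pdk1 measured 4.88, 4.97 and 4.91. The receptor gene InR measured 2.67, 2.67 and 2.64 (limma, adjusted p = 0.0020), and was not called without replicate 1 (0.051). Not called were rictor at 2.46, 2.46 and 2.43, and 14-3-3zeta at 2.40 on every array.

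Of the 5 GATA genes, 2 (40%) were called, against 45.7% of all genes. Both had means under the stricter level. The family median was 2.39. GATAd measured 2.85, 2.85 and 2.99, or 0.41 ± 0.081 log2 units over background (SD, n = 3; limma, adjusted p = 0.0050). The gene srp, which directs the formation of blood cells and fat body, measured 2.86, 2.73 and 2.88 (0.34 ± 0.079; adjusted p = 0.0074). All 3 arrays of both genes lay over the level. Neither gene was called against the highest background gene (limma, adjusted p = 0.13 for GATAd and 0.59 for srp), and srp was not called without replicate 1 (0.056). GATAe, the gut endoderm gene, measured 2.39 on every array, as did grn, which acts in several ectodermal organs. The dorsal ectoderm and heart gene pnr lay at the lowest value.

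Markers of the tissues in which GATA factors act were set beside these values. Of 11 hemocyte markers 5 (45.5%) were called, about the share of all genes (45.7%). The extracellular matrix gene Pxn measured 4.69, 4.14 and 4.44 and crq 3.54, 3.48 and 3.60, while vkg, Ppn and ush averaged 3.28, 3.23 and 2.66. Of the 6 that were not called, Hml, eater and Nplp2 lay at the lowest value, and lz, NimC1 and gcm averaged 2.41, 2.39 and 2.39. Of 7 fat body and gut markers 0 were called by limma, adjusted or unadjusted, since every mean lay under the background level. Their highest value was that of Jon65Aiii at 2.43, and Fbp1 and Fbp2 lay at the lowest value. The part of other cell types in the srp level was not tested. Partner proteins of the Sox, forkhead and GATA factors had 4 of 5 measured genes called (80%), with a median of 4.43. The corepressor gene CtBP, which stands on the cofactor list too, measured 6.34, 5.80 and 4.28 (limma, adjusted p = 0.018), and it was not called without replicate 1 (0.068) or replicate 2 (0.090). The adaptor gene Chi measured 5.41, 5.35 and 5.19. The gene ush, which encodes the Friend of GATA protein that binds pnr and srp, measured 2.66 on every array (adjusted p = 0.0010). The POU factor gene vvl, a partner of Sox proteins in the nervous system, measured 2.39.

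Several probe sets were available for 11 of the 48 genes, and in 6 of these the probe sets gave different calls. At the level of probe sets, 41.9% of all 13647 single-gene probe sets were called above background (limma). The widest distance was found for bin, where the other probe sets measured 3.11 on every array and 2.49, 2.69 and 2.49, so that 2 of 3 were called. For Hr39, 2 of 4 probe sets were called. The others next to its highest one measured 2.62, 2.47 and 2.39 on every array, 2.28 log2 units separating the highest from the lowest. FoxK lay at the lowest value with its other probe set, 1.86 log2 units under the first. For ftz-f1, FoxP and Hr38 the other probe sets measured 2.42, 2.43 and 2.39 and were not called. The remaining 5 genes with several probe sets, Hr4, svp, Sox15, fd3F and CHES-1-like, had none called. The sources used here do not give the part of a transcript that each probe set covers, so differences between transcript forms, shared sequence and probe affinity cannot be told apart.

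**Figure D3:**
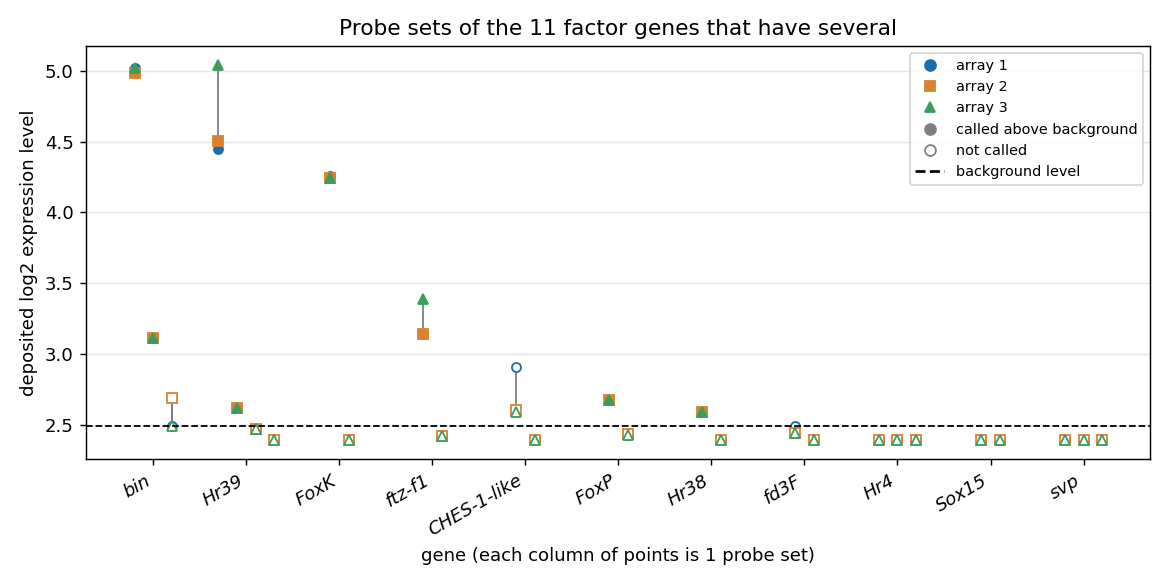
Deposited log2 expression level (vertical axis) of every probe set of the 11 factor genes that have several, in columns of points with 1 mark per array; filled marks are probe sets called above background and the dashed line is the background level of 2.49. The probe sets of bin, Hr39, FoxK and ftz-f1 spread over 0.80 to 2.45 log2 units, while those of Hr4, svp and Sox15 all lie at 2.39.

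Values identical on all 3 arrays were found for 30 of the 48 genes (62.5%), and for 59.8% of all genes. Of these 30 genes, 16 lay at the lowest value and 14 over it. Of those 14, 5 genes, Sox14, Hnf4, FoxP, Hr96 and Hr38, were called above background. An SD of 0 understates their error, and identical values do not measure how well the arrays agree. The SD of 0 also entered the test and helped such genes to be called. Hr96 was called at 0.12 log2 units over background, while EcR, also 0.12 over it with an SD of 0.16, was not. With 1 pooled variance FoxP, Hr96 and Hr38 were not called (limma, adjusted p = 0.27, 0.51 and 0.58). In the other 18 genes, 12 had identical values on 2 arrays, with array 1 the different one in 6 genes, array 3 in 4 and array 2 in 2. SDs of these 18 genes ran from 0.00062 to 0.33, with a median of 0.080. The range over the arrays exceeded 0.5 log2 units in 2 genes, Hr39 at 0.60 and jumu at 0.62.

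Some of the genes are neighbours in the genome, which the choice of genes did not use. Order along the chromosomes was read from RefSeq's gene table of assembly Release 6 plus ISO1 MT, counting protein-coding genes. Sox102F, at 5.38 to 5.66, stood directly beside fd102C, which lay at the lowest value. The GATA genes srp, GATAe and pnr followed each other with 0 genes between them, and of the 3 only srp was called. Between usp, at 5.12 to 5.22, and Hr4, at the lowest value, there were 3 genes, as there were between croc and Hr78, both called. In the paralog pairs Sox21a and Sox21b, kni and knrl, and fd96Ca and fd96Cb, neither gene of a pair was called. These are descriptions of single loci, and no test of position was made.

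The calls rested unequally on the choices behind them. Under all 19 alternative settings croc, Sox102F and usp were above background, and Hr78 and Sox14 under all 18 that kept a probe set of theirs. The other 12 called genes lost the call under at least 1 setting, and 0 of the 31 genes that were not called gained it. Against the highest background gene, Gr39a, 11 of 48 genes were called, where 36.7% of all genes were. The 6 genes lost were srp, GATAd, FoxP, Hr96, Hr38 and ERR. With 1 pooled variance from the genes whose values differ between arrays, 13 were called, where 39.4% of all genes were, without FoxP, Hr96, Hr38 and ERR. Of the list genes named above, ush, tai, Acsl, InR, shd and Hex-A also lost the call there (limma, adjusted p = 0.093 to 0.72). When each gene took its lowest probe set, 11 were called, where 44% of all genes were. The genes lost were then bin, Hr39, FoxK, ftz-f1, FoxP and Hr38. Without probe sets whose names mark sequence shared between transcripts or genes, 37 of the 48 genes were measured and 8 called, where 40.4% of all genes were. Hr39, FoxK, ftz-f1 and Hr38 were lost there, and Sox14, Hr78, Hnf4, srp and ERR were not measured. Without replicate 1, 12 genes were called, where 39.4% of all genes were, and jumu, srp, Hr96, Hr38 and ERR were lost.

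**Figure D4:**
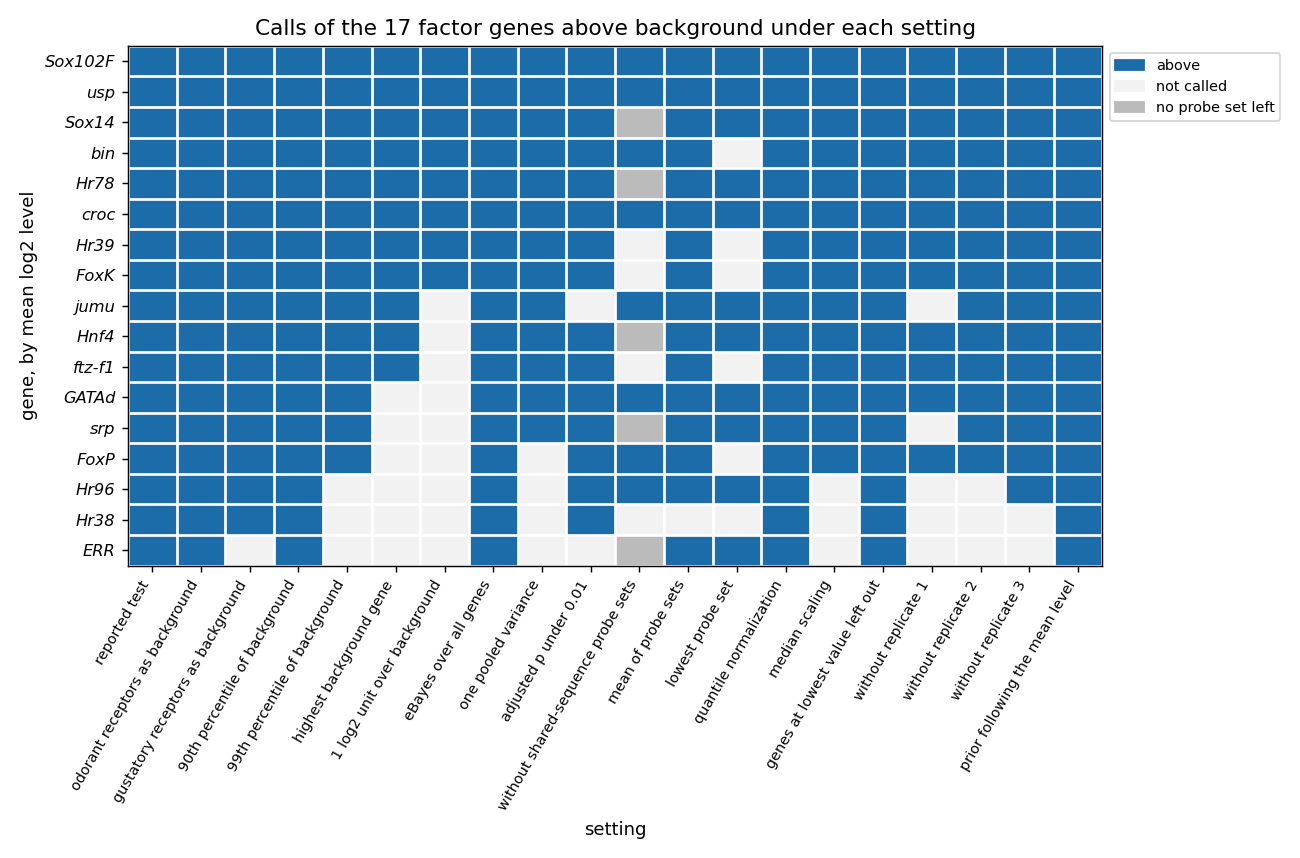
Calls of the 17 factor genes above background (rows, from the highest to the lowest mean log2 level) in the reported test and under 19 other settings (columns); blue cells are called, light cells not called and grey cells had no probe set left. The rows of Sox102F, usp and croc are blue throughout, and Hr38 and ERR have 8 blue cells each besides the reported test.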

How the data were processed

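Total RNA of 3 OSS samples was labelled with biotin and hybridised to Affymetrix expression arrays, per the labels' protocols. The authors deposited 1 log2 value for each of 18952 probe sets on each of 3 arrays, from 2.39 to 14.75. The log base was inferred from that range. Scanner files went through the submitters' own scripts, per the labels; how background, scaling and summary were handled is not given in the sources used here. Precision is limited by the small number of arrays.

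Values were used as deposited. Probe sets with 1 gene in the platform annotation numbered 13647 and named 11982 genes; a gene took its probe set with the highest mean. Each gene's 3 values minus the background level were fitted by an intercept in limma 3.58.1 (R 4.3.3) and tested one-sided for values above. Identical values, within 1e-06, gave most genes an SD of 0. The prior variance was therefore estimated only from genes whose values differ between arrays, and was combined with each gene's own variance. For genes with identical values that own variance was 0. This put their moderated variance under the prior and lowered the p-values of those above the level. P-values were adjusted over all genes by Benjamini-Hochberg, anew in each alternative. Members, lists and tests were chosen with earlier results of these data known. Named were all members, the 2 highest and 2 lowest of each pathway list, and the highest and lowest of each marker list; other list genes were named after their values were seen. Alternatives varied background, variance, probe sets, scaling and arrays.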

Additional observations from a re-analysis of the deposited data

How the results depend on the processing

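No paired analysis was possible because the 3 arrays form a single group. Of 247 counts of calls under 19 alternatives, 218 stayed within 1.5 times the reported count. The members and the 2 highest and 2 lowest genes of each pathway list, 76 genes, were followed one by one. Of their 1399 values, 1329 gave the same outcome as the reported test, called or not called. These include genes that were not called, many at the lowest value, so the total says little of how firm the calls are. All other values were lost calls, 38 with the mean still over the level and 32 with it under. The genes shd, br and InR were not among the 76. A prior variance following the mean level, chosen after seeing the data, gave 17 called factor genes, where 46.7% of all genes were called. With 1 log2 unit added to the level, 3017 of all genes were called, 8 factor genes, 3 nuclear receptors, 3 forkhead and 0 GATA genes, and in the lists 2 for ecdysteroid synthesis, 4 for ecdysone response, 6 cofactors, 2 partners and 5 for fatty acid oxidation. Against the highest background gene 11 factor genes, 5 nuclear receptors and 0 GATA genes were called, where 36.7% of all genes were. The count of nuclear receptors was 5 with the 99th percentile (41.4% of all genes called), with 1 pooled variance (39.4%) and with median scaling (42.4%). With the lowest probe set (44% of all genes called) it was 5, with 11 factor genes and 2 forkhead genes. Without shared-sequence probe sets fewer genes were measured, and 40.4% of all genes were called. Called there were 8 of 37 factor genes, 2 of 12 nuclear receptors, 1 of 6 Sox and 1 of 3 GATA genes. In the lists 2 of 7 ecdysone response, 2 of 3 partner and 3 of 3 glycolysis genes were called. Leaving out 1 replicate in turn gave 12 to 15 factor genes, 5 to 6 nuclear receptors, 4 to 5 forkhead, 2 Sox and 1 to 2 GATA genes. In the lists it gave 3 genes for ecdysteroid synthesis, 5 to 7 for ecdysone response, 9 to 12 cofactors and 3 to 4 partners. It gave 7 to 8 genes for insulin signalling, 8 to 9 for glycolysis and 9 for fatty acid oxidation. Of all genes, 39.4% were called without replicate 1, 41.2% without replicate 2 and 43% without replicate 3. With median scaling ush (adjusted p = 0.052), InR (0.0503), shd (0.34) and Hex-A (0.11) also lost the call. The cause of these changes was not tested.

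Means minus the level turned negative as follows. With 1 log2 unit added they were -0.94 for ERR, -0.81 for FoxP, -0.59 for GATAd, -0.19 for Hnf4, -0.90 for Hr38, -0.88 for Hr96, -0.26 for ftz-f1, -0.66 for srp, -0.72 for tai, -0.83 for ush, -0.88 for Hex-A and -0.72 for Acsl. Against the highest background gene they were -0.24 for ERR, -0.11 for FoxP, -0.20 for Hr38, -0.185 for Hr96, -0.026 for tai, -0.13 for ush, -0.18 for Hex-A and -0.022 for Acsl. With the 99th percentile they were -0.059 for ERR, -0.018 for Hr38 and -0.00022 for Hr96. With the lowest probe set they were -0.058 for FoxK and Hr39, -0.020 for FoxP, -0.054 for Hr38 and -0.028 for ftz-f1. Without shared-sequence probe sets they were -0.10 for FoxK and Hr39, -0.098 for Hr38 and -0.071 for ftz-f1.

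Identical values on all arrays understate the error, genes near the background level depend on where it is set, and 3 arrays of 1 line limit the precision.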
